A study of Mus musculus with 2 samples.

Results

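Committed myocytes were the cells of regenerating mouse muscle that carried Myog transcripts, had few transcripts of 4 contractile genes and were outside the S and G2/M phases, and they numbered 287 of the 3287 cells kept from 2 sorted libraries. Satellite cells, the resident stem cells of skeletal muscle, had been sorted from Pax3GFP/+ mice 5 days after injury, with biceps and recto femoris named as the tissue, and GFP in these mice reports activity of the Pax3 locus. The GFP+ (PAX3+) fraction and the GFP- (PAX3-) fraction each gave 1 droplet-based library, made with the 10x Single Cell 3′ v3.1 kit from 20000 loaded cells. The labels give the genotype of both as wild-type beside the title's Pax3GFP/+, and they state neither how many animals were used, nor which biceps it was, nor whether the muscles were pooled. With 1 library per fraction there was no replicate and no statistical test, so the 95% intervals below cover counting error only and each difference is one between these libraries.

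The committed myocyte is the step between the dividing myoblast and the multinucleated fibre. In textbook accounts MYOG, a basic helix-loop-helix transcription factor, follows MYOD1 in the myogenic cascade and switches on the genes of terminal differentiation, while inhibitors of cyclin-dependent kinases hold the cell out of the cycle. The same cells then make the membrane proteins MYMK (myomaker) and MYMX (myomerger), which fuse them to each other or to fibres, and only afterwards assemble sarcomeres in quantity.

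The members were selected on measured values. A barcode was kept from 1000 UMIs (unique molecular identifiers, 1 per captured transcript) and 500 genes upwards, with no more than 10% of UMIs from mitochondrial genes. A committed myocyte had, per 10000 UMIs, at least 5 of Myog, under 20 of Acta1, Myh3, Mylpf and Tnnt3 together, under 8 of 7 G2/M genes, under 6 of 8 S-phase genes, under 10 of 4 macrophage genes and under 5 of 3 mural cell genes. They were 41 of 604 GFP+ cells (6.79%, exact binomial interval 4.92% to 9.10%) and 246 of 2683 GFP- cells (9.17%, 8.10% to 10.3%). Leaving out the immune and mural cells, they were 7.75% of 529 GFP+ cells and 9.79% of 2514 GFP- cells. Myog stood at 5 or more in 72 GFP+ cells, of which 21 were set aside as contractile and 10 as cycling, and in 407 GFP- cells, of which 112 were contractile, 46 cycling, 2 immune and 1 mural. Both neighbouring states serve for orientation below. Myog-low cells (393 GFP+ and 1634 GFP-) held Pax7, Myf5 or Myod1 with Myog under 5, and contractile cells (24 GFP+ and 119 GFP-) reached 20 of the contractile genes, both outside the cycle.

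In all, 13928952 UMIs had been counted for GFP+ (718416 barcodes) and 49709323 for GFP- (1361552 barcodes). The 41 GFP+ committed myocytes had a median of 24097 UMIs, 4309 genes and 2.71% mitochondrial UMIs, and the 246 GFP- committed myocytes 15452 UMIs, 3652 genes and 4.64%. Their summed UMIs were 987735 in GFP+ and 4105656 in GFP-, the depth behind each level below. Of the barcodes kept, 2 occurred in both libraries, and 1 of these was a committed myocyte. Leaving them out, committed myocytes were 6.81% of GFP+ and 9.14% of GFP- cells. Some of the cells called immune in the GFP- library carried muscle RNA. Their summed Myog was 227 CPM (UMIs per 1000000 of the summed UMIs), against 3.42 CPM in those of the GFP+ library. It came from 7 of 57 GFP- immune cells, with a median of 0 and a highest value of 49.7 per 10000 UMIs.

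Within the members Myog covered a range of more than an order of magnitude. Myog per 10000 UMIs had its lowest value at 5.06, its median at 48.4 and its highest at 111 in GFP+ committed myocytes, and at 5.08, 28.5 and 124 in GFP- committed myocytes. The median per cell was 115 Myog UMIs in GFP+ and 44 in GFP-, and 2 GFP+ and 4 GFP- members held at most 2. Just inside the Myog threshold, between 5 and 10, lay 9 GFP+ members (median 6.63) and 45 GFP- members (median 7.04), while 6 GFP+ cells (median 2.85) and 42 GFP- cells (median 3.76) lay just outside, between 2.5 and 5. Just inside the contractile limit, between 10 and 20, lay 2 GFP+ members (median 12.4) and 34 GFP- members (median 14.6), while 11 GFP+ cells (median 29.5) and 24 GFP- cells (median 30.2) lay between 20 and 40. The 4 contractile genes were at 0 UMIs in 6 GFP+ and 61 GFP- members. Cells thus lay close to the Myog cut on both sides in each library. The contractile sum reached 19.5 in the highest GFP- member and began at 20.4 in GFP- cells past the limit. In GFP+ these values were 13.7 and 20.0, with few cells near that cut on the member side.

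The label of committed myocytes rested on 4 markers, Myog, Mymk, Rbm24 and Cdkn1c. Summed over the members, Mymk reached 437 CPM in GFP+ and 284 CPM in GFP- committed myocytes, against 1.18 and 3.50 CPM in the Myog-low cells of the same libraries. Rbm24, an RNA-binding splicing regulator of muscle, reached 468 CPM in GFP+ and 394 CPM in GFP- members, against 51.7 and 48.3 CPM in Myog-low cells. Cdkn1c, an imprinted gene that encodes an inhibitor of cyclin-dependent kinases, reached 6911 CPM in GFP+ and 6892 CPM in GFP- members, against 1200 and 1625 CPM in Myog-low cells. Each cell was then thinned to 5000 UMIs, and the 2 GFP+ and 7 GFP- members shallower than that dropped out. All 4 markers then occurred together in 20 of 39 GFP+ members (51.3%, exact binomial interval 34.8% to 67.6%) and in 107 of 239 GFP- members (44.8%, 38.4% to 51.3%). Without thinning the shares were 80.5% in GFP+ and 63.0% in GFP-. In thinned contractile cells all 4 occurred together in 16 of 24 GFP+ cells (66.7%, 44.7% to 84.4%) and 87 of 115 GFP- cells (75.7%, 66.8% to 83.2%). Detection of the 4 markers thus sets the members apart from Myog-low cells and not from contractile cells. The contrast with Myog-low cells is the one that chose the cells, so it describes them and supports nothing further.

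Promoters of 4 of these genes are shown because their transcripts were higher in the members than in Myog-low cells of both libraries: Myog itself, the RNA-binding marker Rbm24, the acetylcholine receptor gene Chrna1 and the sarcomere assembly gene Klhl41. The windows are the 250 bases before each start site, read 5′ to 3′ on the gene's strand from RefSeq on GRCm38.p6, at chr1:134289754-134290003 (plus strand) for Myog, chr13:46418050-46418299 (plus) for Rbm24, chr2:73580339-73580588 (minus) for Chrna1 and chr2:69669870-69670119 (plus) for Klhl41. Capitals mark E-boxes (CANNTG, the motif of the MYOD1 and MYOG family). In Myog they also mark the MEF3 motif TCAGGTTTC, known from the protein family of SIX2, and in Klhl41 a MEF2 motif. The MEF2 motif was searched as C or T, TA, 4 letters of A or T, TA, and A or G. The stretch ctatatttat in the Myog window departs from this pattern in its last letter only and is left unmarked.
Myog: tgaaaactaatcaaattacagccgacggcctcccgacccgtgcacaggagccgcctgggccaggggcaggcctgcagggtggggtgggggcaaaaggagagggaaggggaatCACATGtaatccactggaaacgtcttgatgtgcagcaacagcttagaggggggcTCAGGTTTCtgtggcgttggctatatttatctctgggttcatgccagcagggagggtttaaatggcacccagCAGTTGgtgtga
Rbm24: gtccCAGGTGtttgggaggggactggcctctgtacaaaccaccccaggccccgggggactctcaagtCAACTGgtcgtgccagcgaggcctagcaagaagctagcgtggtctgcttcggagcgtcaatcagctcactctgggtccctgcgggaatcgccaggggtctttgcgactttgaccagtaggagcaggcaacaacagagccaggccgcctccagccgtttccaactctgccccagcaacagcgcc
Chrna1: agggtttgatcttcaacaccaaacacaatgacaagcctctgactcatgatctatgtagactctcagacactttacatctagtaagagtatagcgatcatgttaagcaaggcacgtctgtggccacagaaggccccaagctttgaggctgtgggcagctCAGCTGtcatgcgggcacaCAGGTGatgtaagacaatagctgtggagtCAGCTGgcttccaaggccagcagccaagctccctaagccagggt
Klhl41: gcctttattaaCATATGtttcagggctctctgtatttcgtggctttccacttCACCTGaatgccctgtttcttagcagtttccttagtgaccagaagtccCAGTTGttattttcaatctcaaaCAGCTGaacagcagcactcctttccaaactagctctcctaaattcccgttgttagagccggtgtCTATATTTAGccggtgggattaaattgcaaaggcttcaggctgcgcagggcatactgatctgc
Counted to the first base of the match, the Myog window held CACATG 138 and CAGTTG 12 bases before the start and the MEF3 motif 84 bases before it. The Rbm24 window held CAGGTG at 246 and CAACTG at 183 bases. The Chrna1 window held CAGCTG at 92 and 44 bases and CAGGTG at 73 bases. The Klhl41 window held CATATG at 239 bases, CACCTG at 198 bases, CAGTTG at 150 bases, CAGCTG at 127 bases and the MEF2 motif at 63 bases. Searched on both strands, 66.2% of 32851 such windows held an E-box, 0.387% the MEF3 motif and 2.92% the MEF2 motif in the stated pattern. No motif overlapped another in the 4 windows shown. A match describes the letters of the window and says nothing of what binds there. Mymk, Mymx and Cdkn1c were looked up without a match and are named only.

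In the comparison of committed myocytes with Myog-low cells, a gene was counted where it reached 20 CPM in 1 of the states, differed by at least 2-fold with a counting interval that left out 1, and stood at no less than 0.5 times its level in the empty droplets (1 to 100 UMIs) of the higher cells' library, a gauge of free RNA. Over all genes, 214 of 5639 (3.79%) were higher and 370 (6.56%) lower in committed myocytes by this rule in both libraries. The cells were chosen by this contrast, and nothing is read from the shares of the gene lists against these percentages. Of 24 myogenic transcription factors and partners measured, 3 were higher in both libraries (Myog, Myod1 and Mef2a) and 4 lower (Pax7, Myf5, Id3 and Msc). Over the genes measured in each library, here and for the lists below, the median log2 ratio was -0.44 in GFP+ and 0.01 in GFP- cells, against -0.01 over all genes in each.

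Myod1, the activator upstream of Myog, reached 280 CPM in GFP+ and 239 CPM in GFP- committed myocytes, against 54.2 and 41.6 CPM in Myog-low cells. Mef2a, which encodes a MADS-box partner of the MYOD1 family, reached 348 CPM in GFP+ and 375 CPM in GFP- members, against 103 and 112 CPM in Myog-low cells. Mef2c, a MEF2 factor of differentiated muscle, stood at only 6.08 CPM in GFP+ and 12.2 CPM in GFP- members and at 63.0 and 216 CPM in contractile cells. The satellite cell factors ran the other way. Pax7 fell to 28.4 CPM in GFP+ and 34.6 CPM in GFP- committed myocytes, against 289 and 213 CPM in Myog-low cells. Myf5 fell to 28.4 CPM in GFP+ and 40.2 CPM in GFP- members, against 405 and 269 CPM. Id3 and Msc, which encode inhibitors of the MYOD1 family, were lower as well, Msc at 29.4 CPM in GFP+ and 33.1 CPM in GFP- members, against 205 and 179 CPM.

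**Figure D1:**
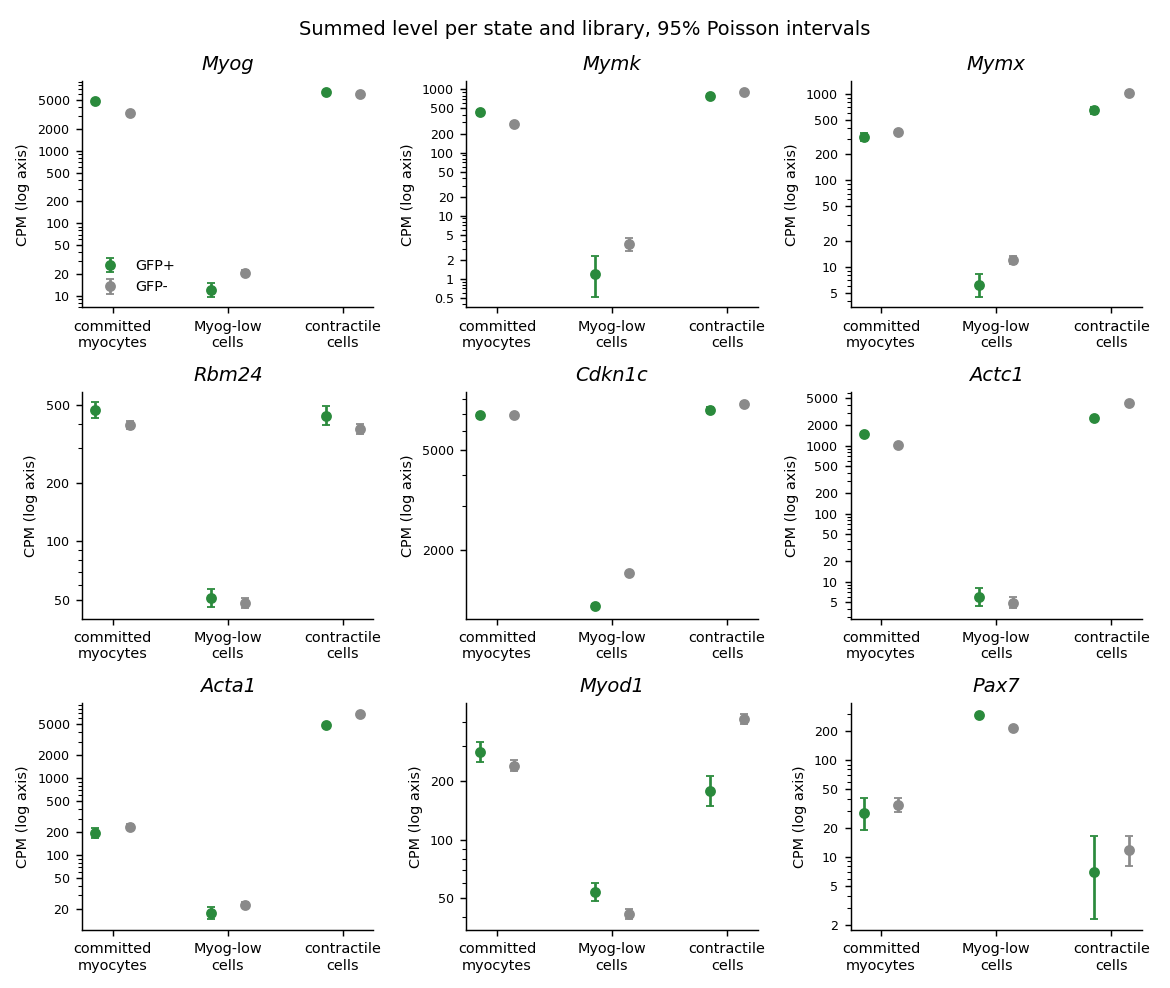
Summed levels (CPM, log axis) of 9 genes in committed myocytes, Myog-low cells and contractile cells, with a point for each library (green, GFP+; grey, GFP-) and 95% Poisson intervals that cover counting error only. Mymk stood at 437 and 284 CPM in committed myocytes and near 1 to 4 CPM in Myog-low cells, while Acta1, which the selection used, stood at 193 and 236 CPM in committed myocytes and at 4943 and 6826 CPM in contractile cells.

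Some members still held transcripts of the satellite cell factors. Pax7 or Myf5 was detected in 5 of 39 thinned GFP+ committed myocytes (12.8%, exact binomial interval 4.30% to 27.4%) and in 63 of 239 thinned GFP- members (26.4%, 20.9% to 32.4%). Without thinning these shares were 34.1% in GFP+ and 43.9% in GFP-. In Myog-low cells, which were chosen partly on these genes, the thinned shares were 91.4% in GFP+ and 86.4% in GFP-. Immune cells, which should lack Pax7, showed it in 0 of 68 thinned GFP+ cells and in 2.27% of 44 thinned GFP- cells, at median depths of 13545 and 8086 UMIs before thinning. Myf5 was found in 0 of 68 thinned GFP+ immune cells but in 9.09% of the GFP- ones (2.53% to 21.7%). Thinned members held it in 7.69% of GFP+ and 16.7% of GFP- cells. The shares in GFP- members and GFP- immune cells cannot be told apart within counting error. Some GFP- immune cells also held Myog, so they are no clean gauge of free RNA, and its part in the Myf5 share was not tested.

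The 2 fusogen genes were nearly absent from Myog-low cells and present in the members. Of 21 fusion and adhesion genes measured, 4 were higher in both libraries (Mymk, Mymx, Jam3 and Bin1) and 2 lower (Kirrel and Vcam1), with a median log2 ratio of -0.46 in GFP+ and -0.31 in GFP- cells. Mymk was 371-fold higher in committed myocytes than in Myog-low cells in GFP+ (187 to 866) and 80.9-fold in GFP- (64.8 to 102). Mymx reached 315 CPM in GFP+ and 362 CPM in GFP- members, against 6.18 and 12 CPM in Myog-low cells, ratios of 50.9 (36.8 to 72.1) and 30.2 (26.6 to 34.4). Jam3, a junctional adhesion molecule, reached 295 CPM in GFP+ and 337 CPM in GFP- members, against 83.0 and 111 CPM. Bin1, a membrane-curving protein of muscle, was 3.45-fold higher in GFP+ and 2.45-fold in GFP-. Vcam1, an adhesion molecule of satellite cells, stood at 59.7 CPM in GFP+ and 98.9 CPM in GFP- members, against 351 and 329 CPM in Myog-low cells. Both fusogen genes were higher still in contractile cells, Mymk at 787 CPM in GFP+ and 899 CPM in GFP- and Mymx at 644 and 1023 CPM.

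Mymk and Mymx were not always detected in the same cell. In thinned committed myocytes both were detected in 33.3% of 39 GFP+ cells (19.1% to 50.2%) and in 40.2% of 239 GFP- cells (33.9% to 46.7%). Mymk without Mymx was detected in 35.9% of GFP+ cells (21.2% to 52.8%) and in 13.4% of GFP- cells (9.34% to 18.4%). Mymx without Mymk was detected in 7.69% of GFP+ cells (1.62% to 20.9%) and in 24.7% of GFP- cells (19.4% to 30.7%). The counting intervals of the libraries do not overlap for Mymk alone and overlap for Mymx alone. Without thinning, Mymk alone was found in 17.1% of 41 GFP+ members (7.15% to 32.1%) and 7.32% of 246 GFP- members (4.39% to 11.3%), and Mymx alone in 4.88% (0.596% to 16.5%) and 22.0% (16.9% to 27.6%). There the intervals overlap for Mymk alone and not for Mymx alone, so which of these separates the libraries depends on thinning. Thinned immune cells, which should lack both, held Mymk in 0 of 68 GFP+ cells (exact interval up to 5.28%) and 2.27% of 44 GFP- cells, and Mymx in 0 of 68 and 4.55%. In thinned contractile cells both genes occurred together in 75% of GFP+ cells and 84.4% of GFP- cells. Thinned Myog-low cells held both in 0 of 349 GFP+ cells and in 2 of 1555 GFP- cells (0.129%).

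**Figure D2:**
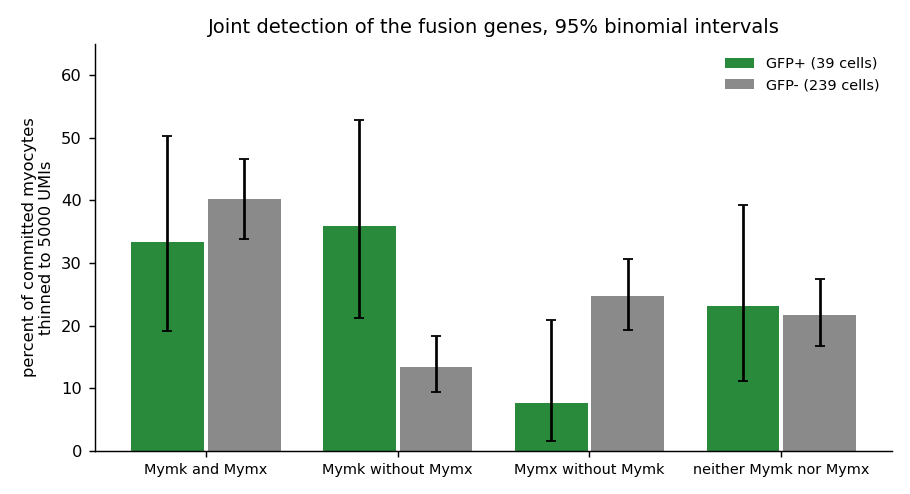
Percent of committed myocytes thinned to 5000 UMIs in which Mymk and Mymx were detected together, alone or not at all (green, 39 GFP+ cells; grey, 239 GFP- cells), with 95% exact binomial intervals. Mymk alone was found in 35.9% of GFP+ and 13.4% of GFP- cells, and Mymx alone in 7.69% and 24.7%.

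Inhibitors of cyclin-dependent kinases went both ways in the members, in which the S and G2/M genes of the rule had been kept low by choice. Of 18 genes of cell cycle exit and G1, Cdkn1a, Cdkn1c and Rb1 were higher and Cdkn2c and Cdkn2d lower in both libraries, with a median log2 ratio of -0.21 in GFP+ and 0.00 in GFP- cells. Cdkn1a, a second inhibitor of cyclin-dependent kinases, reached 638 CPM in GFP+ and 443 CPM in GFP- committed myocytes, against 182 and 120 CPM in Myog-low cells. Rb1, the retinoblastoma protein that restrains E2F factors, reached 102 CPM in GFP+ and 103 CPM in GFP- members, against 14.1 and 11.6 CPM. Ccnd1 and Ccnd3, cyclins of G1, passed the rule in neither direction, Ccnd3 at 241 CPM in GFP+ and 272 CPM in GFP- members, against 222 and 247 CPM. Of 9 proliferation genes outside the rule, Mcm2, a subunit of the replicative helicase, was the single one past the rule in both libraries, at 32.4 CPM in GFP+ and 20.7 CPM in GFP- members, against 7.21 and 8.76 CPM in Myog-low cells. Of 13 muscle RNA-binding proteins, Rbm24 and Rbm38 were higher in both libraries, with a median log2 ratio of 0.56 in GFP+ and 0.37 in GFP- cells.

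Many sarcomere genes that the rule had not used were higher in the members than in Myog-low cells and lower than in contractile cells. Of 22 such genes measured against Myog-low cells, 15 were higher in both libraries and 0 lower, with a median log2 ratio of 1.90 in GFP+ and 1.54 in GFP- cells. The comparison with contractile cells used the GFP- library, which held 119 of them against 24 in GFP+. There 31 of 37 were lower and 1 higher (Mybpc1), with a median log2 ratio of -2.16. Over all 5680 genes 250 were lower (4.4%) and 201 higher (3.54%), with a median of 0.06. The rule set a limit on 4 sarcomere genes, so genes that go with them follow, and the counts are descriptive.

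Actin, troponin and assembly genes of early muscle were among them. Actc1, the cardiac actin of embryonic and regenerating muscle, reached 1495 CPM in GFP+ and 1035 CPM in GFP- committed myocytes, against 6.04 and 4.92 CPM in Myog-low cells and 2555 and 4239 CPM in contractile cells. Tnnt2, the cardiac troponin T, reached 846 CPM in GFP+ and 966 CPM in GFP- members, against 71.7 and 96.1 CPM in Myog-low and 1972 and 2802 CPM in contractile cells. Klhl41, a kelch protein needed for myofibril assembly, reached 78.0 CPM in GFP+ and 61.6 CPM in GFP- members, against 1.32 and 0.959 CPM in Myog-low cells. Genes of the giant sarcomere proteins were higher as well. Ttn, the titin gene, stood at 1015 CPM in GFP+ and 1277 CPM in GFP- members, against 271 and 330 CPM in Myog-low and 2607 and 3141 CPM in contractile cells. Neb, the nebulin gene, stood at 366 CPM in GFP+ and 470 CPM in GFP- members, against 64.2 and 107 CPM in Myog-low cells.

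Other contractile genes remained low in the members. Tnnc2, the fast troponin C, stood at 3.04 CPM in GFP+ and 9.26 CPM in GFP- committed myocytes, against 21 and 236 CPM in contractile cells. Csrp3, a Z-disc protein, stood at 3.04 CPM in GFP+ and 8.28 CPM in GFP- members, against 29.4 and 208 CPM. Ckm, the muscle creatine kinase, stood at 6.08 CPM in GFP+ and 5.36 CPM in GFP- members, against 96.6 and 244 CPM. Of 15 genes of muscle energy metabolism, 8 were lower in GFP- committed myocytes than in contractile cells and 0 higher, and against Myog-low cells 1 of 10 (Adssl1, an enzyme of the purine nucleotide cycle) was higher in both libraries. The selection genes Acta1 and Mylpf stood below their levels in the empty droplets, at 193 and 76.9 CPM in GFP+ members against 417 and 186 CPM in GFP+ empty droplets, and at 236 and 137 CPM in GFP- members against 599 and 419 CPM in GFP- empty droplets. The part of free RNA in these low levels was not tested.

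**Figure D3:**
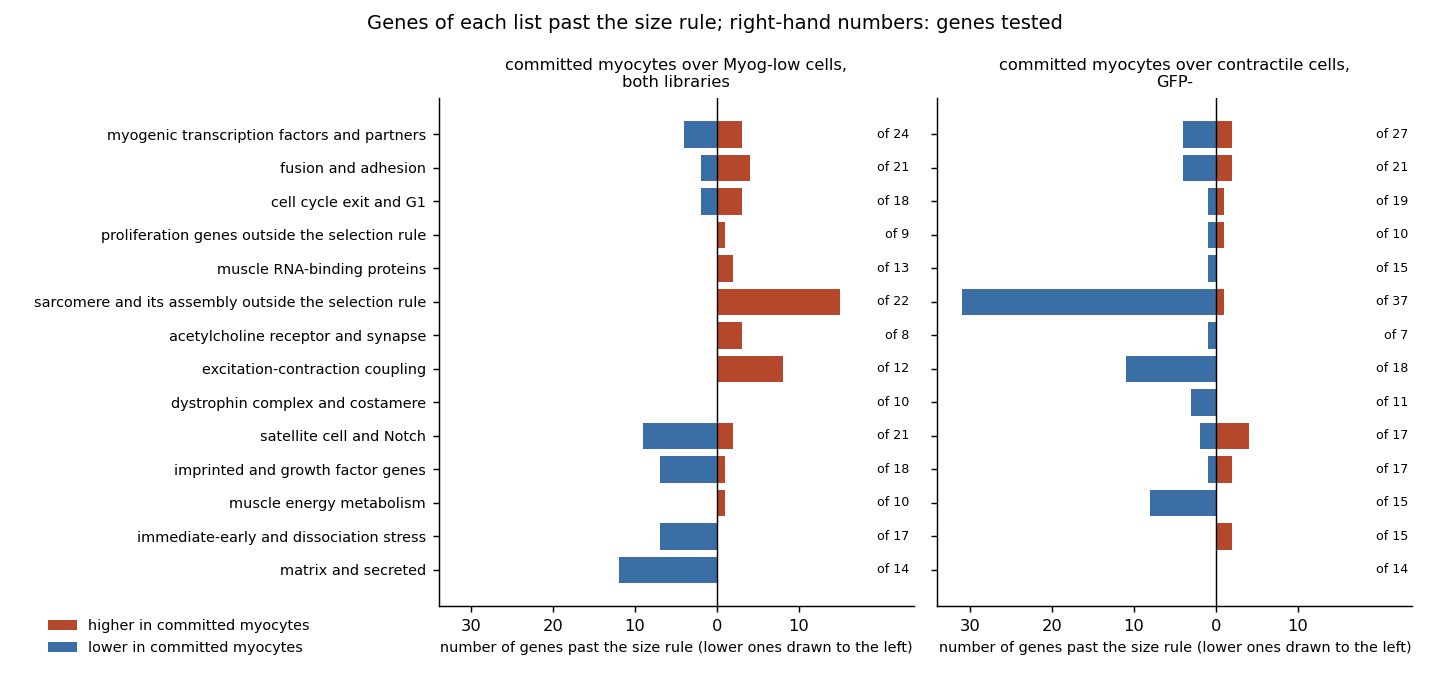
Number of genes of each list that were higher (red, to the right) or lower (blue, to the left) in committed myocytes, against Myog-low cells in both libraries (left panel) and against contractile cells of the GFP- library (right panel), with the number measured at the right edge. Of the sarcomere genes 15 of 22 were higher than in Myog-low cells and 31 of 37 lower than in contractile cells, and of the matrix genes 12 of 14 were lower than in Myog-low cells.

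Genes for receiving and transmitting the nerve signal were higher in part. Of 8 acetylcholine receptor and synapse genes, Chrna1, Chrng and Dok7 were higher in both libraries and 0 lower. Chrna1, the alpha subunit of the receptor, stood at 675 CPM in GFP+ and 810 CPM in GFP- committed myocytes, against 289 and 348 CPM in Myog-low cells. Dok7, the adaptor that activates the synaptic kinase MUSK, reached 93.1 CPM in GFP+ and 57.0 CPM in GFP- members, against 1.77 and 2.17 CPM in Myog-low and 71.4 and 61.0 CPM in contractile cells. Musk itself stood at 37.5 CPM in GFP+ and 31.4 CPM in GFP- members, against 41.5 and 29.8 CPM in Myog-low cells, and did not pass the rule. Of 12 genes of excitation-contraction coupling, 8 were higher in both libraries (Ryr1, Cacng1, Stac3, Jsrp1, Atp2a1, Srl, Tmem38a and Orai1), with a median log2 ratio of 1.54 in GFP+ and 1.44 in GFP- cells. Atp2a1, the calcium pump of the sarcoplasmic reticulum, reached 364 CPM in GFP+ and 216 CPM in GFP- members, against 49.5 and 41.8 CPM. Against GFP- contractile cells 11 of 18 coupling genes were lower and 0 higher. Among these were the calcium store genes Casq2, with 0 UMIs in GFP+ and 0.731 CPM in GFP- members against 32.2 and 73.8 CPM in contractile cells, and Trdn, at 3.04 and 4.14 CPM against 35.0 and 55.4 CPM. Of 10 genes of the dystrophin complex and costamere, 0 passed the rule in both libraries.

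A part of the satellite cell and Notch genes was lower in the members. Of 21 satellite cell and Notch genes, 9 were lower in both libraries (Pax7, Chodl, Tenm4, Vcam1, Heyl, Notch3, Jag1, Egfr and Tgfbr3) and 2 higher (Hes6 and Dll1), with a median log2 ratio of -1.0 in GFP+ and -0.80 in GFP- cells. Dll1, a Notch ligand, reached 40.5 CPM in GFP+ and 60.7 CPM in GFP- committed myocytes, against 6.63 and 5.13 CPM in Myog-low cells. Heyl, a Notch target, stood at 40.5 CPM in GFP+ and 49.4 CPM in GFP- members, against 203 and 194 CPM, and the receptor Notch3 at 12.2 and 37.0 CPM, against 183 and 179 CPM. Jag1, another Notch ligand, ran opposite to Dll1, at 5.06 CPM in GFP+ and 3.41 CPM in GFP- members, against 35.2 and 21.3 CPM. Chodl, a lectin gene of quiescent satellite cells, stood at 5.06 CPM in GFP+ and 13.9 CPM in GFP- members, against 276 and 147 CPM.

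Matrix and secreted genes were lower in the members almost throughout. Of 14 measured, 12 were lower in both libraries and 0 higher, with a median log2 ratio of -1.92 in GFP+ and -1.69 in GFP- cells. Spp1 (osteopontin) stood at 379 CPM in GFP+ and 647 CPM in GFP- committed myocytes, against 1726 and 2401 CPM in Myog-low cells. Its level in the empty droplets was 1404 CPM in GFP+ and 1609 CPM in GFP-. Col4a1, a collagen of the basement membrane, stood at 33.4 CPM in GFP+ and 41.4 CPM in GFP- members, against 337 and 264 CPM. Of 18 imprinted and growth factor genes, 7 were lower in both libraries (Meg3, Rian, Plagl1, Peg10, Gpc3, Igfbp5 and Igfbp7) and Cdkn1c was the single higher one. Of 17 immediate-early and dissociation stress genes, 7 were lower and 0 higher, among them Fosb at 107 CPM in GFP+ and 95.5 CPM in GFP- members, against 422 and 225 CPM in Myog-low cells. This list also tracks handling of the tissue, and its part in the other differences was not tested.

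In the GFP- library a few genes were higher in the members than in both neighbouring states, none of them by 2-fold against both. Taking the 15 genes with the largest lesser ratio to Myog-low and to contractile cells in the GFP- library, among those of at least 50 CPM in members of each library, Rreb1, Zswim6, Plxna2, St3gal4 and Tulp3 were among the leading ones. Rreb1, a zinc finger transcription factor, stood at 90.1 CPM in GFP+ and 143 CPM in GFP- committed myocytes, against 28.6 and 31.7 CPM in Myog-low and 88.2 and 74.2 CPM in contractile cells. Its excess over contractile cells was therefore seen in the GFP- library (1.92-fold, 1.63 to 2.27) and not in the GFP+ library (1.02-fold, 0.732 to 1.43). Zswim6 stood at 66.8 CPM in GFP+ and 71.4 CPM in GFP- members, against 13.7 and 20.0 CPM in Myog-low and 33.6 and 37.8 CPM in contractile cells, a peak in both libraries. Plxna2, a receptor of semaphorins, stood at 88.1 CPM in GFP+ and 83.8 CPM in GFP- members, against 44.9 and 47.4 CPM in Myog-low and 21 and 20.9 CPM in contractile cells. Also among the 15 were Clip3, Rgmb, Dnajc9, Prox1, Snhg15, Tnik, Megf10, Marcksl1 and Tle3. The lesser of the ratios that chose them was at most 1.92 in the GFP- library.

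The members also varied among themselves along Myog. They were divided by Myog per 10000 UMIs into 5 to 10, 10 to 20, 20 to 40 and 40 or more, with 9, 3, 5 and 24 GFP+ cells and 45, 49, 61 and 91 GFP- cells. The top bin held 58.5% of GFP+ and 37.0% of GFP- members, so the summed GFP+ values weigh cells of high Myog more. In the GFP- library, where each bin held at least 45 cells, Mymk stood at 51.0, 113, 210 and 574 CPM from the lowest to the highest bin. Mymx stood at 156, 195, 403 and 553 CPM in the same order, and Cdkn1c at 2492, 4365, 7192 and 10719 CPM. Actc1 stood at 51.0, 229, 660 and 2361 CPM. In the GFP+ library Actc1 stood at 21.5, 44.5, 58.4 and 2494 CPM, highest in the 24 cells of the top bin. These genes were higher in the top bin than in the lowest in both libraries. The marker Rbm24 stood at 409, 489, 573 and 454 CPM along the GFP+ bins. Its intervals in the lowest (322 to 512) and the top GFP+ bin (401 to 512) overlap.

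Not every muscle gene followed Myog. Chrna1 stood at 714, 822, 923 and 774 CPM along the GFP- bins and Tnnt1, the slow troponin T, at 336, 256, 381 and 366 CPM. Mylpf, one of the genes limited by the rule, stood at 202, 155, 141 and 87.8 CPM along the same bins, all below its 419 CPM in the GFP- empty droplets, while Acta1 stood at 80.8, 75.6, 200 and 447 CPM. The genes of the earlier state were lower towards high Myog. Pax7 stood at 65.9, 58.1, 30.1 and 5.67 CPM along the GFP- bins, Spp1 at 1281, 1024, 628 and 70.1 CPM, and Igfbp5, an insulin-like growth factor binding protein, at 1169, 994, 568 and 125 CPM. In the GFP+ library Pax7 stood at 86.1, 178, 17.5 and 1.71 CPM, with 3 cells behind the 178. Median depth was alike along the GFP- bins, between 15258 and 16375 UMIs, and the median mitochondrial share lay between 4.52% and 4.72%.

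**Figure D4:**
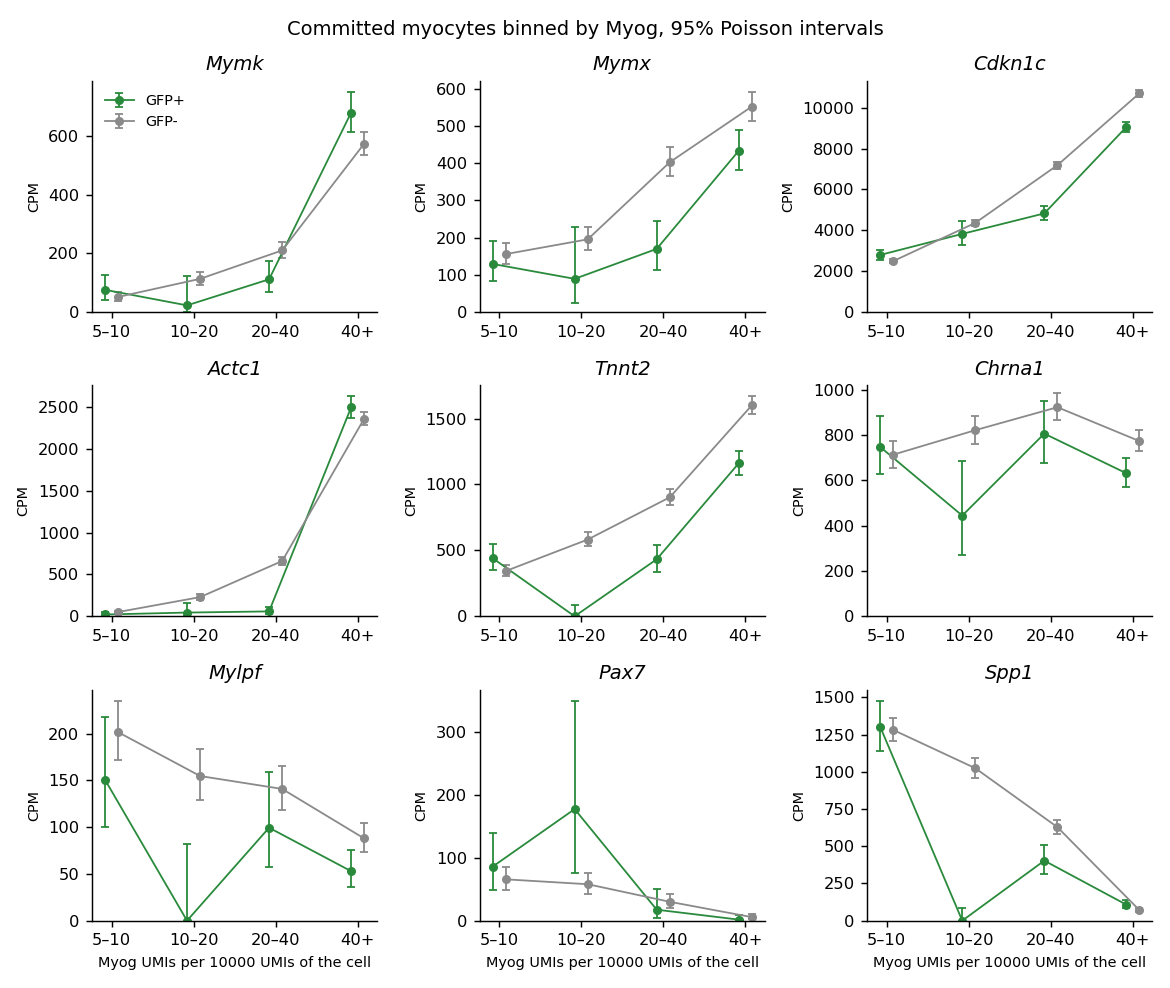
Summed level (CPM) of 9 genes in committed myocytes divided by their Myog per 10000 UMIs (green, GFP+; grey, GFP-), with 95% Poisson intervals. Mymk, Mymx, Cdkn1c, Actc1 and Tnnt2 were highest in the top bin of each library, Chrna1 was nearly level in GFP-, and Pax7 and Spp1 were lower there than in the lowest bin. The GFP+ bin of 10 to 20 holds 3 cells.

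The committed myocytes of the GFP+ and GFP- fractions were then set side by side. The sort was visible in them: Pax3 stood at 18.2 CPM in GFP+ and 5.60 CPM in GFP- committed myocytes (3.25-fold, 1.65 to 6.30). The reporter feature H2BGFP-2A-TVA-2A-B19G, as the files name it, had 47 UMIs in 23 of 41 GFP+ members and 0 in the GFP- members, at least 50.9-fold higher by its counting interval and 65.1-fold against a floor of 3 UMIs over the group. The labels do not state how this feature relates to the Pax3GFP allele. Six2, a homeobox transcription factor gene, stood at 11.1 CPM in GFP+ and 3.41 CPM in GFP- members (3.27-fold, 1.34 to 7.74), from 11 and 14 UMIs. Without the GFP+ cell with most Six2 UMIs the ratio was 2.16 with an interval that includes 1 (0.738 to 5.72), so no difference in Six2 was established at this depth. Pax3 is what the sort acts on and is no finding about the members.

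Genes of commitment itself differed less. Myog stood at 4906 CPM in GFP+ and 3349 CPM in GFP- committed myocytes (1.47-fold, 1.42 to 1.51), although it chose the cells and defined the bins above. Mymk was 1.54-fold (1.38 to 1.72), Actc1 1.44-fold (1.36 to 1.53) and Cdkn1a 1.44-fold (1.31 to 1.58) in GFP+ over GFP-. In members with Myog at 40 or more (24 GFP+ and 91 GFP- cells) these ratios were 1.18 for Mymk, 1.06 for Actc1 and 1.04 for Cdkn1a. Mymx ran the other way over all members, at 0.869 (0.766 to 0.982), but with TMM scaling its interval included 1 (0.894, 0.789 to 1.01). Among members with Myog at 40 or more the Mymx ratio was 0.785. Tnnt2 was 0.876 (0.812 to 0.944) over all members and 0.725 in that subset, and Cdkn1c was 1.0 (0.976 to 1.03) and 0.846. Myog itself still differed in that subset, at 1.12-fold (1.08 to 1.16). Mymk, Actc1 and Cdkn1a were thus closer to 1 in the subset than over all members, and Mymx, Tnnt2 and Cdkn1c were farther from it.

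Across all genes, 80 of 5594 (1.43%) were higher and 107 (1.91%) lower in GFP+ than in GFP- committed myocytes by the size rule, and the median log2 ratio was -0.07. None of the 21 fusion genes or 12 coupling genes measured passed it. Of 25 transcription factors Snai2, a zinc finger repressor, was lower, at 25.3 CPM in GFP+ and 54.1 CPM in GFP- members. Of 16 satellite cell and Notch genes the receptor Notch2 was higher, at 63.8 CPM in GFP+ and 31.7 CPM in GFP- members. Of 15 immediate-early genes Junb and Nr4a1 were higher, and the list's median log2 ratio was 0.77. Junb stood at 618 CPM in GFP+ and 305 CPM in GFP- members and at 700 and 401 CPM in Myog-low cells. That list, depth per cell and the mitochondrial share all differed between the libraries, and their part in the other differences was not tested.

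Some of the largest ratios came mostly from 1 cell. Cxcl13, a chemokine, was 11.2-fold (5.78 to 23.1) in GFP+ over GFP-, with 35 and 13 UMIs, but 1 GFP+ cell held 88.6% of its UMIs and the ratio without that cell was 1.31. Lmod2, an actin filament nucleator of the sarcomere, was 3.61-fold, with 66.0% of its GFP+ UMIs in 1 cell and a ratio of 1.25 without it. Dcaf17 was 4.31-fold and 1.56-fold without its top cell, Nr4a1 4.10-fold and 2.39-fold, and Cck 5.67-fold and 2.93-fold. Leaving out for each gene the GFP+ cell with its most UMIs, 42 genes were higher in GFP+ in place of 80. Only these 80 were looked at again and only GFP+ cells were left out, so the count could only fall. Of the 10 higher genes drawn with the fraction ratios, 7 stayed at least 2-fold. Rpgrip1, which encodes a ciliary protein of photoreceptors, was spread wider, with 91 UMIs in 33 GFP+ members and 66 in 54 GFP- members, a ratio of 5.73 (4.13 to 7.99) and 5.52 without its top cell.

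Many of the higher genes were also higher in GFP+ cells of other states. Of the 80, 46 could be measured in Myog-low cells, and 45 of these lay on the same side with 30 past the rule. Over all 5761 genes measured in Myog-low cells, 36.9% lay on that side and 1.56% passed the rule as higher. Rpgrip1 was 5.73-fold in committed myocytes, 3.57-fold in Myog-low, 3.46-fold in contractile and 8.48-fold in immune cells, so its difference was not seen in committed myocytes alone. Of the 107 lower genes 90 could be measured in Myog-low cells, 84 lay on the same side and 2 passed the rule there, beside 63.1% on that side and 0.139% past the rule as lower over all genes.

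Among the lower genes, Isg15, an interferon-induced ubiquitin-like modifier, had 2 UMIs in 1 of 41 GFP+ members and 148 UMIs in 42 of 246 GFP- members, a ratio of 0.0562 (0.00674 to 0.206). In Myog-low cells Isg15 stood at 95.4 CPM in GFP+ and 96.0 CPM in GFP-. Tmem119 was 0.145-fold (0.0293 to 0.438), with 3 GFP+ and 86 GFP- UMIs. Mdfic, which encodes a relative of the MYOD1 family inhibitor MDFI, was 0.328-fold (0.184 to 0.545). It stood at 16.2 CPM in GFP+ and 49.4 CPM in GFP- members, against 118 and 126 CPM in Myog-low cells. Mdfi itself went the other way and passed the rule as higher, at 32.4 CPM in GFP+ and 15.6 CPM in GFP- members (2.08-fold, 1.32 to 3.23). As a mean of per-cell CPM the ratio of Mdfic was 0.620, and that of Jade1 0.816, both short of 2-fold. The other lower genes named, Sfxn1, Ttc9, Bicc1, Zmiz1, Jade1, Arl13b, Pgm3, Rufy3 and Naf1, lay between 0.244 and 0.346. With 5 to 16 GFP+ UMIs behind each but Isg15 and Tmem119, their intervals were wide.

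**Figure D5:**
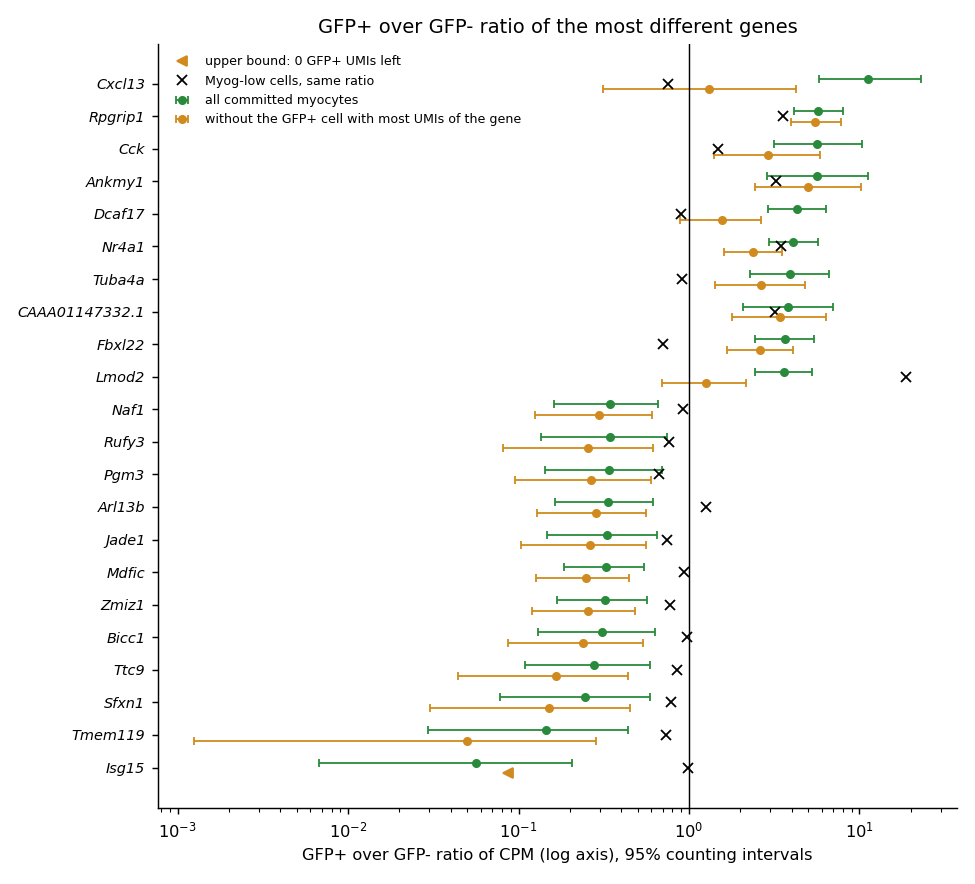
Ratio of CPM in GFP+ over GFP- committed myocytes (log axis) for genes with the highest and lowest ratios, over all members (green), without the GFP+ cell with most UMIs of the gene (orange) and in Myog-low cells (crosses), with 95% counting intervals; the triangle is an upper bound. Cxcl13, Dcaf17 and Lmod2 moved from 11.2, 4.31 and 3.61 to 1.31, 1.56 and 1.25 without 1 cell, while Rpgrip1 was 5.52 without it.

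Macrophage and mural genes were limited by the rule, so low sums of their markers follow from the selection. Over 9 macrophage markers there were 15 UMIs in GFP+ (15.2 CPM) and 12 in GFP- committed myocytes (2.92 CPM), against 3178 and 414 CPM in the empty droplets, with 2 and 3 of the 9 at 0 and Ptprc at 0 in both libraries. The 7 neutrophil and lymphocyte markers had 0 UMIs in GFP+ and 4 in GFP- members, and the 5 glial markers summed to 5.06 and 4.38 CPM. The 6 endothelial markers summed to 3.04 CPM in GFP+ and 2.44 CPM in GFP- members, with 4 of 6 at 0 in each library (Cdh5, Kdr and Emcn in both), and the 4 erythroid markers to 0 in both. The 7 mural markers summed to 149 CPM in GFP+ and 212 CPM in GFP- members, mostly Tagln at 129 and 164 CPM, against 545 and 598 CPM in Myog-low cells, with Higd1b at 0 in both. Of 8 fibro-adipogenic and tendon markers Pdgfra was at 0 in both libraries, and the sum of 113 CPM in GFP+ and 163 CPM in GFP- members was mostly Scx, a tendon transcription factor gene, at 105 and 161 CPM. Scx was 3.07-fold higher in GFP+ and 3.60-fold in GFP- committed myocytes than in Myog-low cells, while Tnmd, another tendon gene, was at 0 in both.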

How the data were processed

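Per the file headers the authors made the matrices with Cell Ranger 4, and they deposited unnormalized counts (UMIs) of 32286 features in every barcode, empty droplets included. The submitters' processing notes name Cell Ranger, Seurat and mm10. No source used here states the annotation release or the counting settings. The thresholds on cells and genes are those stated with the results. Members and gene lists were chosen with earlier results of these data known. UMIs were summed per library and state and scaled to CPM. Ratios carry exact conditional (Clopper-Pearson) intervals, shares exact binomial intervals and levels Poisson intervals, all at 95%. A gene at 0 in 1 group was set against a floor of 3 UMIs over the group. Of 32286 features, 32158 matched GENCODE M21 by ID. The 179 named genes were the markers and selection genes, Pax3, Pax7, Six2, Myf5, Myod1 and the reporter, the 12 highest and 12 lowest fraction ratios past the size rule (leaving aside genes of the mitochondrion, of ribosomal proteins and of haemoglobin and those with Gm or Rik names), up to 8 members of each list with the largest log2 ratio to Myog-low cells in the GFP- library, and the 15 genes above both neighbouring states. Other genes named, among them Mef2c, Tnnc2, Csrp3, Ckm, Casq2, Trdn, Musk, Ccnd1, Ccnd3, Mybpc1, Snai2, Notch2, Junb and Tnmd, are members of the lists named to complete a count or a role after their values were seen. Mdfi was named beside Mdfic after its value was seen. Not every gene that meets the naming rule is reported here. Counts of 3′ tags were not compared between genes. No doublet caller was run, and leaving out the 5% of cells with the most UMIs was an alternative. The steps were tested on simulated counts. The tools were scipy 1.17.1, numpy 2.4.6, pandas 2.3.3 and matplotlib 3.10.9 in Python 3.11.15, with edgeR 4.0.16 in R 4.3.3 for TMM scaling.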

Additional observations from a re-analysis of the deposited data

Results flagged for a closer look

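Barcodes over the mitochondrial limit, which no comparison used, also held cells with the profile of committed myocytes. In the GFP+ library 3 barcodes over 10% mitochondrial UMIs met all the other criteria, and in the GFP- library 24 did, with a median of 2188 UMIs and 26.8% mitochondrial UMIs in the GFP- ones.

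For 2 genes the GFP+ over GFP- ratio lay on opposite sides of 1 in committed myocytes and in contractile cells, a difference that was not tested. Tuba4a, an alpha tubulin gene, was 3.90-fold in committed myocytes (30 GFP+ and 32 GFP- UMIs) and 0.227-fold in contractile cells (11 and 185 UMIs), and 1 of the 12 GFP+ members with Tuba4a held 36.7% of its UMIs. Among members with Myog at 40 or more the Tuba4a ratio was 1.31 (0.399 to 3.88), and as a mean of per-cell CPM it was 10.6. Isg15 was 0.0562-fold in committed myocytes (2 GFP+ and 148 GFP- UMIs) and 3.44-fold in contractile cells (148 and 164 UMIs). Among members with Myog at 40 or more the Isg15 ratio was 0.210 (0.0239 to 0.848).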

How the results depend on the processing

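No paired analysis was possible because each fraction is 1 library with no replicate, and no replicate could be left out. With a Myog minimum of 10 in place of 5, the GFP- share was 7.49% and 189 genes were lower in GFP+ committed myocytes. With a contractile limit of 10 in place of 20, the GFP- share was 7.90%. Counts of genes followed the size rule. Higher and lower in GFP+ were 164 and 209 genes at a minimum of 10 CPM, 229 and 259 with no minimum, and 294 and 422 at a ratio of 1.5. Higher and lower than in Myog-low cells in both libraries were 396 and 666 genes with no minimum and 477 and 730 at a ratio of 1.5, and lower than in GFP- contractile cells were 577 and 520. Among members with Myog at 40 or more, 229 genes were lower in GFP+, and without the GFP+ cell with most UMIs of each gene 42 were higher, both settings added after the data were seen, as was leaving out barcodes kept in both libraries. TMM scaling gave 92 higher and 94 lower in GFP+, in place of 80 and 107. The Lmod2 ratio reversed to 0.349 with the Myog minimum of 10 and to 0.287 at Myog of 40 or more. Of 1765 ratios of named genes over the settings, 175 left their counting interval and 2 reversed, with 64 of the 175 at Myog of 40 or more. Of the 10 higher and 12 lower genes drawn with the fraction ratios, 7 and 11 stayed 2-fold apart at Myog of 40 or more, 10 and 10 as means of per-cell CPM, and 7 and 12 without the top GFP+ cell. Taken as means of per-cell CPM, Pax7 was 1.60-fold and Myf5 1.37-fold in GFP+ over GFP-, in place of 0.820 and 0.705 from sums. With 41 GFP+ members, genes under about 20 CPM rested on few UMIs.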
